A study of Mus musculus with 2 samples.

Results

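The cytosolic ribosomal protein genes of the mouse colon were examined in single nuclei of wild-type and Pink1 knockout mice. Members were taken by gene symbol alone: Rpl or Rps followed by a number, with optional letters x, a, l or p, together with Rpsa, Rplp0, Rplp1 and Rplp2. Pseudogenes and the S6 kinases were left out, and at least 20 UMIs (unique molecules) over both libraries were required. Of 81 matching symbols, 78 passed, among 32285 genes in the files. They comprise 47 genes of the large subunit and 31 of the small subunit, with 4 on chromosome X and the others on 18 autosomes. Rpl10l and Rpl39l had 0 UMIs and Rpl3l had 3, while the least counted members were Rpl35 with 892, Rps27l with 903 and Rpl29 with 1727. The rule's letters do not reach 7 related symbols, among them Rps3a1, Rps27rt, Rpl22l1, Rpl7l1, Fau and Rack1, which were followed as a list of their own.

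Both groups were male C57BL/6 mice of 15 weeks. One was wild type, and the other, from the same litters, carried a Pink1 knockout; the labels do not say which exons are deleted. Sorted nuclei of 3 mice per genotype were pooled and sequenced as 1 library with 3′ tags, so each genotype has 1 sample, the spread between mice is unknown, and genotypes could not be tested against each other. Genotype, library and the labelled batch (1 for wild type, 2 for knockout) coincide and cannot be told apart. All intervals in parentheses are 95% intervals for counting error only. The filtered libraries held 8256 wild-type nuclei (median 1624 UMIs and 1002 genes) and 10966 knockout nuclei (1571 UMIs and 964 genes), out of 8924 and 12230 barcodes with 16997995 and 22446326 UMIs. The 2 libraries shared 28 barcode sequences. Pink1, whose kinase flags damaged mitochondria for clearance, had 171 wild-type and 113 knockout counts, or 11.3 and 6.095 CPM (counts scaled to a total of 1000000 nuclear-encoded UMIs). A 3′ tag can lie outside the deleted part, so these counts do not check the labels. The knockout library also had more mitochondrial RNA, 0.525% of UMIs against 0.270%, and fewer nuclei without a mitochondrial UMI, 9.68% against 25.8%.

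Ribosomal proteins assemble with ribosomal RNA into the small subunit, which reads the mRNA, and the large subunit, which joins amino acids. Assembly begins in the nucleolus, and most of the proteins are needed in about equal amounts. The mRNAs are made at high rates, and most begin with a C followed by a run of pyrimidines, the 5′ terminal oligopyrimidine (TOP) tract, through which growth signals acting on the mTOR kinase set their translation. In the colon, stem and progenitor cells at the crypt base divide and supply the absorptive colonocytes and mucus-secreting goblet cells that line the surface. Mature ribosomal protein mRNA is mostly cytoplasmic, so counts from isolated nuclei hold newly made RNA together with whatever cytoplasmic RNA stayed with the nucleus.

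The start regions of the members are shown first, because the tract at the start site is the feature the family is known for. RefSeq promoters (GRCm38.p6) matched 58 of the 78 members with 69 promoters, 9 members having more than 1. The windows run from base -30 to base 20 around the annotated start, base 1 being the first transcribed base, and capitals mark the longest run of C and T that touches bases -5 to 5. The first set has a C at base 1 followed by 4 pyrimidines.
Rpl28 (chr7:4792935-4792984, plus strand): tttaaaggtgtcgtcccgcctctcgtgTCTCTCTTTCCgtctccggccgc
Rps10 (chr17:27635225-27635274, minus strand): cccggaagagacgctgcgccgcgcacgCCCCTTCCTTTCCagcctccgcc
Rps6 (chr4:86857348-86857397, minus strand): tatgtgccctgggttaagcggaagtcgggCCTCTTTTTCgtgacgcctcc
Rpl15 (chr14:18270967-18271016, minus strand): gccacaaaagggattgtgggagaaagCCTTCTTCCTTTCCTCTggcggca
Rpl35 (chr2:39005112-39005161, minus strand): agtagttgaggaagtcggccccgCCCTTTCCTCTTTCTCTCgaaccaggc
Rpl14 (chr9:120571487-120571536, plus strand): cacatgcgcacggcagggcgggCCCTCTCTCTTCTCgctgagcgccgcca
Rps15a (chr7:118116128-118116177, minus strand): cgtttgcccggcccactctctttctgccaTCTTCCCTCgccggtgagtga
The second set does not have this start at the annotated site, and is shown because its members lie at the ends of the order by library ratio described further on.
Rpl18 (chr7:45718041-45718090, plus strand): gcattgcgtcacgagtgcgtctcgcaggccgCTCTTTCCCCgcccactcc
Rplp0 (chr5:115559437-115559486, plus strand): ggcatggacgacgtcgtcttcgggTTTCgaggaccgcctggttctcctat
Rps19 (chr7:24884562-24884611, plus strand): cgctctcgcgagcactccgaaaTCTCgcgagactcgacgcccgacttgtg
In Rpl18 the run begins at base 2, and in Rplp0 and Rps19 the longest run near the start has 4 bases, Rps19 being shown at the first of its 3 annotated starts.

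A C at base 1 followed by 4 pyrimidines was found in 13 of 69 member promoters (18.8%), against 2.50% of all 32817 promoters in the table. A run of at least 8 pyrimidines touching bases -5 to 5 was present in 23 member promoters (33.3%) and in 9.37% of all, and a run of at least 10 in 17 (24.6%) and 4.96%. The letters CTTTCC, searched on the sense strand from base -10 to 15, occurred in 9 member promoters (13.04%) and 1.04% of all. CTCTTT occurred there in 7 (10.1%) and 0.881%, CTTCC, which overlaps CTTTCC in its last letters, in 12 (17.4%) and 5.41%, and CTTTT in 5 (7.25%) and 2.57%. No member promoter held TATAAA between bases -40 and -20 on the sense strand, where 1.91% of all promoters did. On both strands of the 300 bases, CCGGAA, a core that ETS factors bind, occurred in 33 member promoters (47.8%) and 14.9% of all. GGGCGG, a core of Sp1 sites, occurred in 42 (60.9%) and 35.6%, and AAGATGGC, the core of the YY1 motif, in 7 (10.1%) and 2.74%. Annotated starts can be off by several bases, and a match of letters is a description and not a bound site.

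Ribosomal protein RNA made up a slightly larger share of the knockout library. The 78 genes held 115056 UMIs in wild-type nuclei, 0.763% of nuclear-encoded UMIs (0.759 to 0.768), and 162722 UMIs in knockout nuclei, 0.878% (0.874 to 0.882). The ratio of knockout over wild-type share was 1.15 (1.14 to 1.16). Of the members, 74 were above a ratio of 1 and 4 below it (Rpl35, Rpl14, Rps15a and Rps19), with a median log2 ratio of 0.21 beside -0.02 over the 16563 genes with enough counts. No member was 1.5-fold apart in either direction, where 6.51% of all genes were at least 1.5-fold higher and 8.07% at least 1.5-fold lower in the knockout library. The log2 ratios ran from -0.10 to 0.48. Large and small subunit genes moved alike, with medians of 0.19 and 0.21, and the UMIs of the large subunit were 1.35 times those of the small subunit in the wild-type library and 1.34 times in the knockout library.

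**Figure D1:**
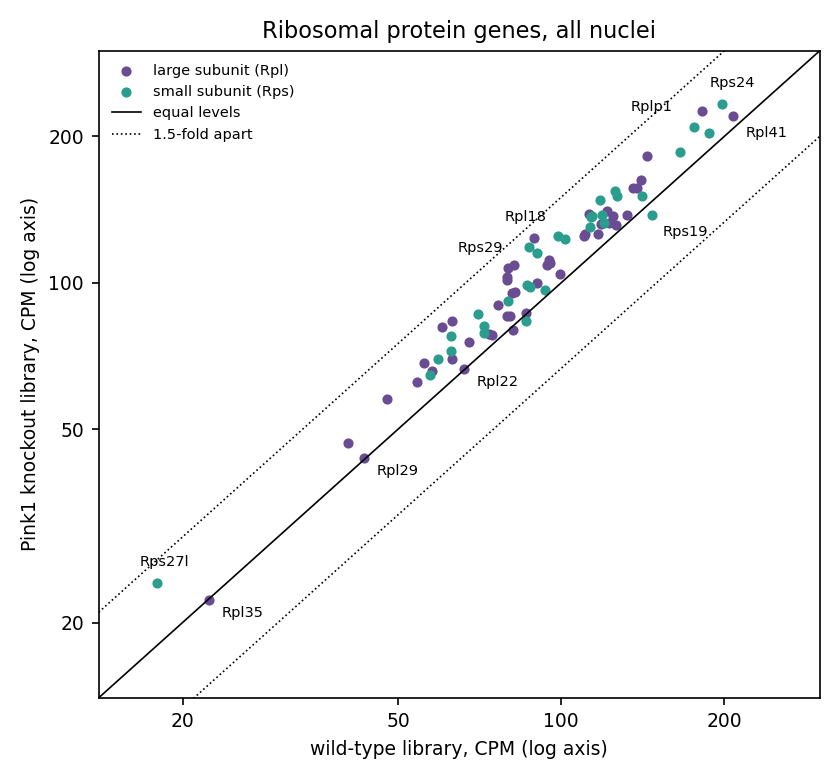
Level of each of the 78 ribosomal protein genes over all kept nuclei, in CPM, in the wild-type library (x axis) and the Pink1 knockout library (y axis), both on log axes, with the line of equal levels and lines 1.5-fold apart. All points lie between the 1.5-fold lines and 74 lie above the line of equal levels.

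The members at the high end are given in the order of the interval bound nearest to 1. Rpl18, a large subunit protein, had 89.0 CPM in wild-type and 123.7 CPM in knockout nuclei, a ratio of 1.39 (1.30 to 1.49). Rps29, a small zinc-binding protein of the small subunit, had 87.2 and 118.2 CPM (ratio 1.36, 1.27 to 1.45). Rplp0, the base of the large subunit's stalk, had 79.7 and 107.1 CPM (ratio 1.34, 1.25 to 1.45). All 3 intervals lay well above 1. Rpl26, known for binding the Trp53 mRNA, had 60.2 and 81.2 CPM (ratio 1.35, 1.24 to 1.47). Rpl4 had a ratio of 1.33 (1.23 to 1.45), Rpl23 of 1.27 (1.20 to 1.34) and Rpl28 of 1.29 (1.20 to 1.39). Rps27l, a paralog of Rps27 known as a target of p53, had a like ratio of 1.35 with a wide interval (1.16 to 1.57), because it was counted only 270 times in wild-type and 447 times in knockout nuclei.

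At the other end stood Rps19, a small subunit protein whose loss is known from Diamond-Blackfan anaemia. It had 147.1 CPM in wild-type and 137.7 CPM in knockout nuclei, a ratio of 0.936 (0.884 to 0.991), and was the only member whose interval lay below 1. Rps15a (86.2 and 83.6 CPM, ratio 0.970), Rpl14 (81.5 and 79.8 CPM, ratio 0.980) and Rpl35 (22.4 and 22.2 CPM, ratio 0.991) were near equal in both libraries, with intervals that hold 1. The same held for Rpl22 (ratio 1.01), Rpl7a (1.01), Rpl29 (1.01) and Rps26 (1.03), the rest of the lowest 8. Of the genes of the 13 promoters with the C start, Rpl28, Rps10, Rps18, Rps21 and Rplp2 held places 8, 9, 10, 13 and 15, Rps6 held place 48, and Rps27, Rpl38, Rpl15, Rpl35a, Rpl35, Rpl14 and Rps15a held places 61, 67, 68, 70, 75, 76 and 77 of 78.

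By role, the stalk proteins Rplp1 and Rplp2, which recruit elongation factors, had 181.7 and 226.0 CPM (ratio 1.24, 1.19 to 1.31) and 112.5 and 138.2 CPM (ratio 1.23, 1.16 to 1.31). With Rplp0, all 3 stalk genes had ratios above 1.2 over all nuclei, but in nuclei with at most 0.5% mitochondrial UMIs the ratios were 1.09 (1.00 to 1.19) for Rplp0, 1.05 (0.994 to 1.12) for Rplp1 and 1.00 (0.930 to 1.08) for Rplp2. Rpl5 and Rpl11, which carry the smallest large-subunit RNA and can bind Mdm2, had ratios of 1.13 (1.06 to 1.21) and 1.18 (1.09 to 1.27). Rps6, the substrate of the S6 kinases, had 72.0 and 81.3 CPM (ratio 1.13, 1.05 to 1.22). Rps27a, made as a fusion with ubiquitin, had 125.5 and 154.4 CPM (ratio 1.23, 1.16 to 1.30). Rpsa, also known as a laminin receptor, had 113.6 and 136.4 CPM (ratio 1.20, 1.13 to 1.28), and Rps3, which also takes part in DNA repair, 79.6 and 91.6 CPM (ratio 1.15, 1.07 to 1.24). The 4 genes on chromosome X were Rps4x (ratio 1.24), Rpl36a (1.21), Rpl10 (1.15) and Rpl39 (1.11), all with intervals above 1 over all nuclei. At up to 0.5% mitochondrial UMIs they had 1.06 (0.965 to 1.17), 1.10 (0.989 to 1.23), 1.12 (1.01 to 1.24) and 0.902 (0.814 to 1.00). In that set Rpl5 (1.04), Rpl11 (0.981), Rps6 (1.03) and Rps3 (1.03) had intervals that hold 1. Rps27a (1.13, 1.06 to 1.21) and Rpsa (1.13, 1.05 to 1.21) stayed above 1. Of the paralogs, Rpl36al, at 40.3 and 46.7 CPM over all nuclei, had a ratio of 1.16 beside 1.21 for Rpl36a. Rps27l had 1.35 beside 1.09 (1.01 to 1.18) for Rps27.

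Counts differed widely among members, although most of the proteins, paralogs and stalk proteins aside, are needed in about equal amounts. Wild-type values ran from 17.9 CPM (Rps27l) to 207.3 CPM (Rpl41), and knockout values from 22.2 CPM (Rpl35) to 233.2 CPM (Rps24). The most counted genes included Rps24, Rpl41, Rplp1, Rps12, Rps14, Rpl23 and Rpl13a, and the 4 least counted were Rps27l, Rpl35, Rpl29 and Rpl36al. Per kilobase of annotated exon, Rplp1 stood highest at 364.1 CPM per kilobase in wild-type and 452.8 in knockout nuclei. Rpl38 (183.4 and 192.5), Rps15 (181.1 and 217.3) and Rpl36 (176.5 and 197.5) lay well below it in both libraries. Rps15a was lowest at 13.7 and 13.3, with Rps3 (17.8 and 20.4) and Rpl35 (18.1 and 17.9) next. The order of members was nearly the same in both libraries, with Pearson's r of 0.98 between their log2 CPM across the 78 genes, which share the library and the counting. A 3′ tag does not scale with length, and ribosomal protein genes have many processed pseudogenes, between which reads cannot always be told apart, so levels of single members are uncertain in size.

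Nuclei were clustered jointly, with the members left out of the genes used, and clusters were named "-like" from known markers. The names are rebuilt here and need not be the study's. The summed share of ribosomal protein UMIs was compared across 9 named classes and 5 unnamed clusters with at least 100 nuclei in each library. Among the named classes it was high in crypt-base-like, proliferating-like and B-like nuclei and low in colonocyte-like and smooth muscle-like nuclei. In the knockout library it was highest in an unnamed cluster, cluster 0, at 1.56%. In the wild-type library it was highest in crypt-base-like nuclei (led by Fut9, Smoc2 and Lgr5), at 1.26% in wild-type (1.24 to 1.27) and 1.37% in knockout (1.36 to 1.39). Proliferating-like nuclei (Top2a, Cenpf) followed with 1.21% (1.19 to 1.23) and 1.35% (1.33 to 1.37). B-like nuclei (Bank1, Ighd) had 1.15% (1.10 to 1.21) and 1.05% (0.988 to 1.11), so that in wild-type nuclei they overlapped the proliferating-like class within counting error.

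The middle of the order held fibroblast-like nuclei at 0.807% and 0.779%, goblet-like nuclei at 0.647% and 0.779%, and macrophage and dendritic-like nuclei at 0.551% and 0.586%. The lowest named classes were smooth muscle-like nuclei at 0.470% and 0.381%, cluster 20, whose markers are those of pericytes and which is led by Sfrp4, Car3 and Kcnn3, at 0.465% and 0.416%, and colonocyte-like nuclei (Slc26a3, Aqp8) at 0.437% and 0.484%. In the wild-type library the interval of cluster 20 (0.431 to 0.501) overlapped those of both neighbours, smooth muscle-like (0.450 to 0.491) and colonocyte-like nuclei (0.429 to 0.446), which did not overlap each other. Of the unnamed clusters, cluster 0 (led by Sycn and Gsdmc3) had 1.00% and 1.56%, cluster 6 (Gsdmc3, Aqp4) 0.854% and 0.853%, cluster 2 (Dmbt1, Reg3b) 0.732% and 0.820%, cluster 1 (Plet1, Car8) 0.505% and 0.560% and cluster 13 (Meg3, Rian) 0.491% and 0.530%. The order was similar in both libraries, with Pearson's r of 0.94 and Spearman's rho of 0.95 over the 14 classes and clusters. Cluster 0 held place 4 in wild-type and place 1 in knockout nuclei, while colonocyte-like nuclei held places 14 and 12 and smooth muscle-like nuclei places 12 and 14. These points share the libraries, and the order did not follow mitochondrial RNA closely, with a rho of 0.21 in wild-type and 0.49 in knockout nuclei between the 2 shares.

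The difference between the crypt base and the colonocytes was large and ran through almost the whole family. This pair was chosen after the values were seen, so the values are a description. The summed share was 2.87 times higher in crypt-base-like than in colonocyte-like nuclei of the wild-type library (2.81 to 2.94) and 2.84 times higher in the knockout library (2.78 to 2.89). In each library 75 of 78 members were at least 1.5-fold higher in the crypt base, where 48.5% of all genes in wild-type and 51.4% in knockout nuclei were. No member was at least 1.5-fold lower, where 16.0% of all genes were in each library. Median log2 ratios of the members were 1.47 and 1.44, beside 0.55 and 0.62 for all genes. Malat1, a nuclear RNA, took 21.5% of UMIs in wild-type colonocyte-like nuclei and 8.88% in crypt-base-like nuclei, and what part this has in the gap was not tested.

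Rpl12, which lies at the base of the stalk, showed the widest gap by the mean log2 ratio of both libraries, with 186.9 CPM in wild-type crypt-base-like nuclei and 34.4 CPM in colonocyte-like nuclei, a ratio of 5.43 (4.23 to 7.03), and 236.4 and 32.6 CPM in knockout nuclei, a ratio of 7.26 (5.86 to 9.08). Rpl3, which lies near the site where amino acids are joined, had 234.5 and 42.4 CPM (ratio 5.53) in wild-type and 243.0 and 39.7 CPM (ratio 6.12) in knockout nuclei. Rps18, Rpl10a, Rpsa and Rps19 also had ratios between 4.49 and 5.66 in both libraries. For Rps19 the levels were 288.1 and 57.0 CPM in wild-type and 264.3 and 58.9 CPM in knockout nuclei.

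Only Rpl31, Rps27l and Rpl14 did not pass 1.5-fold in both libraries. Rpl31, a large subunit protein near the exit of the nascent chain, had 98.0 CPM in wild-type crypt-base-like and 84.4 CPM in colonocyte-like nuclei (ratio 1.16, 0.943 to 1.43), and 122.4 and 134.8 CPM in knockout nuclei (ratio 0.908, 0.777 to 1.06). Rpl14 had ratios of 1.28 (1.04 to 1.57) and 1.34 (1.12 to 1.59). For Rps27l the ratios were 1.09 (0.669 to 1.76) and 1.38 (0.951 to 2.01), from 35 to 61 counts per class and library. Rps29 and Rpl9 came next, with ratios of 1.90 and 1.71 in wild-type and 1.61 and 1.91 in knockout nuclei. The log2 ratios of the 78 members in the 2 libraries had Pearson's r of 0.90 across genes, which are not independent replicates.

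**Figure D2:**
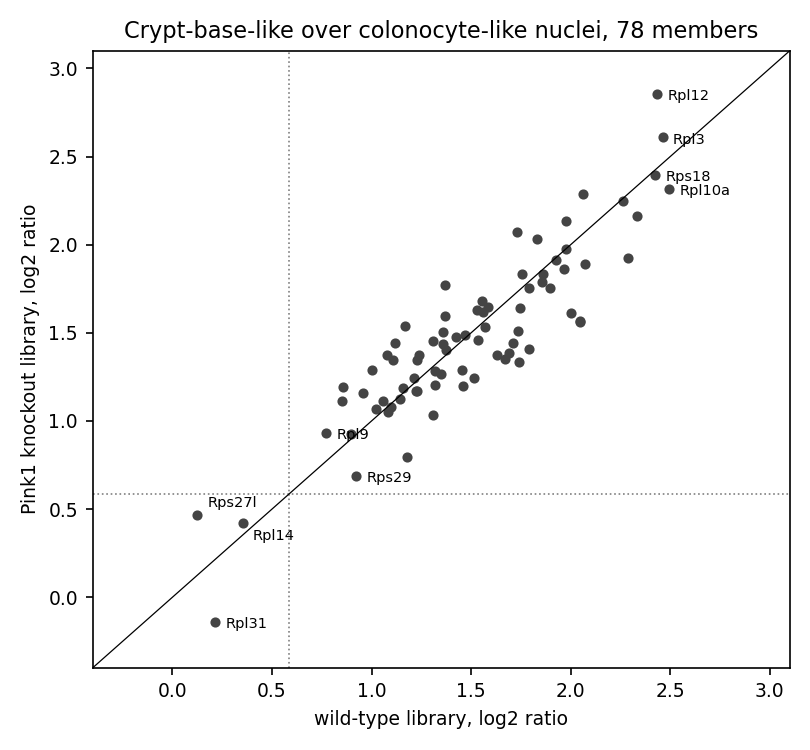
Log2 ratio of crypt-base-like over colonocyte-like nuclei for each of the 78 ribosomal protein genes, in the wild-type library (x axis) and the Pink1 knockout library (y axis), with the line of equal ratios and dotted lines at 1.5-fold. Rpl12, Rpl3, Rps18 and Rpl10a lie at the top right, and only Rpl31, Rps27l and Rpl14 lie below 1.5-fold.

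Other lists of protein synthesis genes were also higher in the crypt base, where 48.5% and 51.4% of all genes were at least 1.5-fold higher, with medians of 0.55 and 0.62. The 58 measured ribosome biogenesis genes, which process ribosomal RNA and build the subunits, had a median log2 ratio of 1.97 in wild-type nuclei, with 53 at least 1.5-fold higher, and the 60 measured in knockout nuclei had 2.20, with 57. Noncoding host genes of small nucleolar RNAs, many of which also carry a TOP tract, had medians of 2.70 (12 of 13 at least 1.5-fold higher) and 3.06 (14 of 14). Translation factors and other TOP mRNAs had medians of 1.18 (20 of 23) and 1.56 (22 of 23), and mitochondrial ribosomal proteins 1.00 (53 of 76) and 1.03 (61 of 77). The nuclear-encoded subunits of oxidative phosphorylation had medians of -0.02 (13 of 73 higher, 8 lower) and -0.18 (5 of 74 higher, 18 lower), but 0.38 (28 of 72 higher, 2 lower) and 0.28 (16 of 74 higher, 6 lower) in nuclei with at most 0.5% mitochondrial UMIs. In nuclei with at most 0.5% mitochondrial UMIs the summed share of the ribosomal protein genes was 1.21% in wild-type crypt-base-like and 0.342% in colonocyte-like nuclei, and 1.28% and 0.340% in knockout nuclei, ratios of 3.55 and 3.77, so the gap was not smaller there. Thinned to 500 UMIs, which left out no kept nucleus, the median crypt-base-like nucleus held 5 ribosomal protein UMIs in the wild-type and 6 in the knockout library, and the median colonocyte-like nucleus 1 and 2. Without thinning the medians were 18 and 18 against 6 and 5, at median depths of 1623, 1497, 1736 and 1631 UMIs.

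The profile of each member over the 14 classes and clusters was also compared with the sum of the other members. The median Pearson's r, on log2 CPM, was 0.88 in wild-type and 0.93 in knockout nuclei, beside 0.23 and 0.25 for 11695 other genes against the members' sum. Rps24 was among the closest, from 342.7 CPM in wild-type crypt-base-like to 94.1 CPM in colonocyte-like nuclei. The lowest values were those of Rps27l (0.53 and 0.30), Rpl14 (0.49 and 0.84), Rpl36al (0.61 and 0.78) and Rpl36a (0.85 and 0.62). By the lower of the r in both libraries, the 10 other genes most like the members' sum were AY036118, Rps3a1, Eef2, Tpt1, Snrnp48, Tomm20, Eef1a1, Zfas1, Ppia and Huwe1. Rps3a1 is itself a small subunit protein, Eef2 and Eef1a1 are elongation factors, and Tpt1 and Zfas1 are known TOP transcripts. Their r ran from 0.84 for Huwe1 to 0.95 for Rps3a1 in wild-type nuclei, over 14 points that share the libraries. The profile was not particular to the members. Median r in wild-type and knockout nuclei was 0.77 and 0.80 for ribosomal proteins outside the rule. It was 0.73 and 0.72 for translation factors and other TOP mRNAs, and 0.73 and 0.68 for snoRNA host genes. Ribosome biogenesis genes had 0.61 and 0.56, and mitochondrial ribosomal proteins 0.49 and 0.43.

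The library ratio itself differed between classes. The summed share was higher in the knockout library in 5 of 9 named classes and in 9 of all 14 classes and clusters, with intervals above 1 in 8 and below 1 in 3. The ratio was 1.20 (1.18 to 1.23) in goblet-like, then proliferating-like (1.12, 1.09 to 1.15), colonocyte-like (1.11, 1.08 to 1.14) and crypt-base-like nuclei (1.09, 1.07 to 1.11). This order changed with the processing, the ratio being 0.972 in goblet-like nuclei with a stricter filter, 1.30 in colonocyte-like nuclei with a looser filter and 1.39 in crypt-base-like nuclei at a clustering resolution of 0.5. Macrophage and dendritic-like (1.06, 0.983 to 1.15) and fibroblast-like nuclei (0.966, 0.932 to 1.00) had intervals that hold 1. Ratios below 1 were found in B-like nuclei (0.909, 0.843 to 0.981), cluster 20 (0.894, 0.810 to 0.988) and smooth muscle-like nuclei (0.810, 0.766 to 0.858). Whether these ratios differ between classes beyond the variation between mice was not tested.

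Within classes few members passed 1.5-fold. The members named in each class are those at either end of the order by the interval bound nearest to 1, among members with at least 50 counts in the class, so a member with fewer counts or a wider interval can have a more extreme ratio. In goblet-like nuclei 5 of 78 were at least 1.5-fold higher in the knockout library and 0 lower, beside 6.07% and 12.0% of all genes. They included Rpl28, at 61.5 CPM in wild-type and 98.2 CPM in knockout nuclei (ratio 1.60, 1.28 to 2.00), while Rpl10 had 60.5 and 52.5 CPM and Rpl14 85.1 and 77.5 CPM. In colonocyte-like nuclei 4 of 78 were higher and 0 lower, beside 6.96% and 13.5% of all genes. Rpl31 went from 84.4 to 134.8 CPM there (ratio 1.60, 1.34 to 1.91) and Rplp0 from 35.3 to 58.0 CPM (ratio 1.64, 1.25 to 2.16), whereas Rpl38 (0.860, 0.681 to 1.09) and Rpl6 (0.834, 0.663 to 1.05) were at the low end. These shares of members past the threshold are close to or below those of all genes.

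In crypt-base-like nuclei 0 of 78 members were 1.5-fold apart in either direction, beside 6.04% of all genes higher and 7.86% lower. Rpl4 was nearest, at 103.9 and 155.0 CPM (ratio 1.49, 1.25 to 1.79), with Rps10 at 134.4 and 188.5 CPM (1.40, 1.20 to 1.65), and Rpl29 stood at the low end, at 80.3 and 61.0 CPM (0.759, 0.599 to 0.962). Rpl39 had a ratio of 0.841 (0.680 to 1.04). Proliferating-like nuclei had 2 members higher and 0 lower, beside 7.21% and 9.38% of all genes. Both were large subunit genes, Rpl18, at 122.5 and 202.2 CPM (1.65, 1.32 to 2.08), and Rpl26, at 85.2 and 133.3 CPM (1.57, 1.19 to 2.07). Rpsa, at 173.4 and 259.7 CPM (1.498, 1.24 to 1.82), was just under the fold, and at the low end stood Rps15a (0.798, 0.636 to 1.00) and Rpl23a (0.806, 0.622 to 1.04).

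Fibroblast-like nuclei had 1 member at least 1.5-fold higher and 3 lower, beside 10.2% and 11.1% of all genes. The former was Rpl18, with 66.7 and 106.5 CPM (1.60, 1.10 to 2.35), beside Rpl3 (1.43, 1.00 to 2.05), and at the low end stood Rpl21, with 131.7 and 78.2 CPM (0.594, 0.431 to 0.818). In smooth muscle-like nuclei 18 of the 75 measured members were at least 1.5-fold lower in the knockout library, beside 10.8% of all genes, and 2 were higher, beside 12.9%. Rps23 had 79.9 and 38.3 CPM there (0.479, 0.282 to 0.807) and Rpl13a 105.1 and 62.1 CPM (0.591, 0.385 to 0.907). Rps9 (1.37, 0.838 to 2.31) and Rpl34 (1.35, 0.760 to 2.49) had ratios above 1 with intervals that hold 1, each from 18 to 57 counts. The class joins 2 clusters, of which cluster 23, led by Adamts1, Tagln and Nr4a1, held 1 wild-type and 220 knockout nuclei. Without it the summed ratio was 0.839.

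The ratio of cluster 0 was the highest of the 14. Its summed ratio was 1.56 (1.52 to 1.60), all 78 members were above 1, and 49 were at least 1.5-fold higher in the knockout library and 0 lower, beside 11.0% and 10.4% of all genes. Rplp0 had 109.8 CPM in wild-type and 243.1 CPM in knockout nuclei of this cluster, Rpl18 had 112.1 and 239.9 CPM, and Rpl10a 169.2 and 244.5 CPM. Rps19 was near equal at 223.0 and 225.5 CPM. The cluster held 654 wild-type and 1183 knockout nuclei, and its neighbour cluster 6, also led by Gsdmc3, held 961 and 158. Mitochondrial UMIs in cluster 0 were 0.573% in wild-type and 1.47% in knockout nuclei, and its median depth was 1140 and 1680 UMIs. Its nuclei over 2% mitochondrial UMIs, 24 wild-type and 174 knockout, held 29.95% and 52.4% of its ribosomal protein UMIs. The summed ratio was 0.934 (0.897 to 0.973) in these nuclei and 2.18 (1.90 to 2.52) from 0.5 to 2%. The latter rests on only 21 wild-type and 45 knockout nuclei, with 228 and 1812 ribosomal protein UMIs. Above 0 and up to 0.5% the summed ratio was 1.19 (1.15 to 1.23), and with no mitochondrial UMI 0.986 (0.915 to 1.06).

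Ribosomal protein RNA and mitochondrial RNA moved together across nuclei. In nuclei with no mitochondrial UMI the members took 0.629% of UMIs in the wild-type and 0.675% in the knockout library, and in nuclei above 0 and up to 0.5% they took 0.701% and 0.699%. From 0.5 to 2% the shares were 1.25% and 1.39%, and in nuclei over 2% they were 2.75% and 3.08%. The nuclei over 2% were 166 in the wild-type library (2.01%) and 432 in the knockout library (3.94%), and they held 10.3% and 20.7% of all ribosomal protein UMIs. In the nuclei with at most 0.5% mitochondrial UMIs, 7657 wild-type and 9710 knockout, the ratio of the summed shares was 1.02 (1.01 to 1.03) instead of 1.15, the median log2 ratio was 0.038, and 48 members were above 1 and 30 below. In that set the ratio was 1.05 (1.04 to 1.07) in crypt-base-like, 1.01 (0.989 to 1.04) in proliferating-like, 0.992 (0.961 to 1.02) in colonocyte-like and 0.936 (0.912 to 0.961) in goblet-like nuclei, so that the last 2 were on the other side of 1. It was 1.16 (1.13 to 1.20) in cluster 0 and 0.898 (0.844 to 0.956) in smooth muscle-like nuclei.

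**Figure D3:**
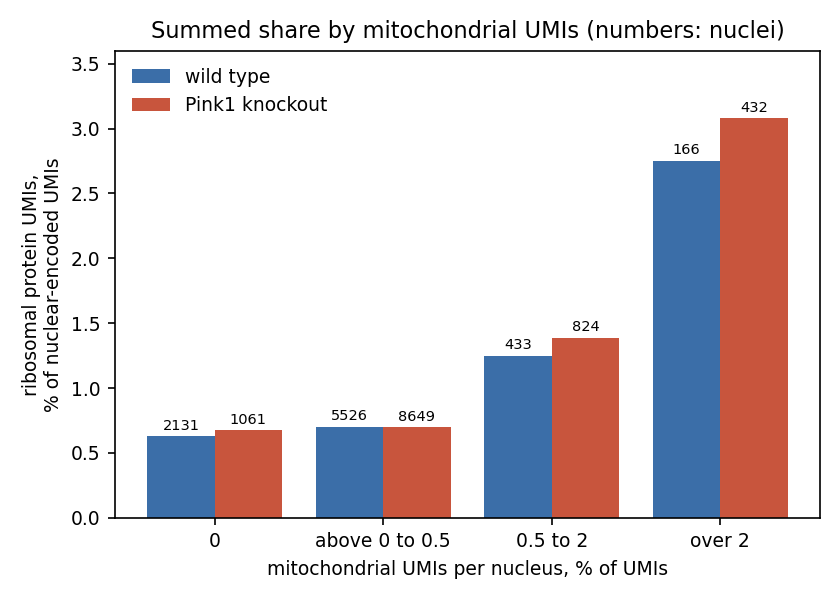
Summed share of ribosomal protein UMIs, in percent of nuclear-encoded UMIs (y axis), in nuclei grouped by their percentage of mitochondrial UMIs (x axis), for the wild-type (blue) and Pink1 knockout library (red), with the number of nuclei above each bar. Shares are near 0.7% up to 0.5% mitochondrial UMIs and reach 2.75% and 3.08% over 2%.

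The nuclei with at most 0.5% mitochondrial UMIs are most of all nuclei, 7657 of 8256 and 9710 of 10966. The nuclei left out nevertheless held 16.88% of the ribosomal protein UMIs in the wild-type library and 29.99% in the knockout library. The members' values given next are a description of the nuclei with at most 0.5% mitochondrial UMIs. Rpl4 had 57.6 and 75.2 CPM there (ratio 1.31, 1.20 to 1.43), Rpl18 had a ratio of 1.22 (1.13 to 1.32) and Rpl26 of 1.22 (1.11 to 1.35). Rps29 had a ratio of 1.06 (0.974 to 1.16) beside 1.36 over all nuclei, and Rplp0 of 1.09 (1.00 to 1.19) beside 1.34. Rps19 had 138.8 and 114.7 CPM (0.826, 0.775 to 0.880), but a ratio of 1.13 in nuclei with no mitochondrial UMI, and Rpl29 had 38.8 and 32.5 CPM (0.836, 0.741 to 0.944). The ratio of the summed shares also varied with depth, in no single direction: it was 1.17 (1.14 to 1.20) in nuclei with 500 to under 1000 UMIs, 1.07 (1.06 to 1.08) with 1000 to under 2000, 1.22 (1.20 to 1.23) with 2000 to under 4000 and 1.57 (1.53 to 1.61) with 4000 or more. The last group had 272 wild-type and 176 knockout nuclei.

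Related lists were set beside the members, over all nuclei and by the same fold, beside the 6.51% of all genes higher and 8.07% lower given above. The 7 ribosomal proteins outside the rule had a median log2 ratio of 0.23, among them Fau (1.24, 1.16 to 1.31), Rpl22l1 (1.19, 1.09 to 1.31) and Rps3a1 (1.17, 1.11 to 1.25). The 74 measured subunits of oxidative phosphorylation had a median of 0.24, with 4 at least 1.5-fold higher, among them Cox6a1 (53.3 and 86.9 CPM) and Ndufs7 (32.6 and 53.6 CPM), while Ndufb2 had 66.5 and 51.4 CPM. The 18 abundant cytosolic mRNAs had a median of 0.24, with 5 at least 1.5-fold higher, led by the actins Actg1 (ratio 3.20, 3.09 to 3.32) and Actb (2.22, 2.13 to 2.31). Translation factors and other TOP mRNAs had 0.06, although Eef1b2 (1.36, 1.26 to 1.47), Eef1a1 (1.31, 1.26 to 1.37) and Tpt1 (1.33, 1.26 to 1.41) were as high as the highest members. Mitochondrial ribosomal proteins (0.04), ribosome biogenesis genes (0.04) and snoRNA host genes (0.00) were close to the median of all genes. Genes that control ribosomal mRNA and S6 kinase had -0.04, with Ddit4, an inhibitor of mTOR, highest at 24.5 and 51.0 CPM (2.09, 1.85 to 2.36) and Trp53 at 74.95 and 55.7 CPM (0.743, 0.683 to 0.810). The 6 nuclear noncoding RNAs had a median of 0.02 and the 7 goblet mucus genes of 0.16. At up to 0.5% mitochondrial UMIs the medians were 0.07 for oxidative phosphorylation, 0.20 for abundant cytosolic mRNAs and 0.03 for TOP mRNAs. The ribosomal proteins outside the rule had 0.13 there, beside 0.038 for the members and -0.03 for all genes.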

How the data were processed

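Each deposited value is a UMI count of 1 gene in 1 barcode. The authors counted with Cell Ranger 6.1.2, a version named per the file headers. The build, per the submitters' processing notes, is mm10 (GRCm38). No source used here names the annotation release, or says whether introns and strand were used. Barcodes with at least 500 UMIs, 300 genes and at most 10% mitochondrial UMIs were kept. The highest Scrublet scores, at 0.8% per 1000 barcodes, were removed as doublets (632 wild-type, 1180 knockout). Counts were scaled to 10000 per nucleus, and 2000 variable genes without members, 30 principal components, 20 neighbours and Leiden resolution 1 (scanpy 1.11.5, leidenalg 0.10.2) gave 29 clusters. A cluster took the class whose markers had the highest mean log2 fold, if that mean was at least 0.3 and 3 markers were 2-fold higher. Gene coordinates came from GENCODE M21, matched for 32235 of 32285 IDs and all 78 members.

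UMIs were summed per library and class, as CPM over nuclear-encoded genes. Shares carry Clopper-Pearson and ratios conditional binomial 95% intervals (scipy 1.17.1); log2 ratios add 0.5 to each count. Genes needed 20 UMIs over both libraries (50 per class for named genes) and classes 100 nuclei per library. The interval script was tested on simulated data. With 1 library per genotype no test was run.

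Members and lists were chosen with earlier results of these data known. Members named were the 8 highest and 8 lowest by the ratio bound nearest to 1, the 8 highest and 4 lowest by CPM, those with set roles, paralogs, the 2 highest and 2 lowest per large class, and up to 3 per list at each end. A few genes reached by this choice have no values given here.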

Additional observations from a re-analysis of the deposited data

Results flagged for a closer look

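The library ratio of the summed ribosomal protein share went in opposite directions in different classes, with counting intervals on both sides of 1. All 3 classes with an interval below 1 are given here, with the 3 highest of the 8 whose interval lay above 1. It was 0.810 in smooth muscle-like nuclei, 0.909 in B-like nuclei and 0.894 in cluster 20, whose markers are those of pericytes. It was 1.20 in goblet-like nuclei, 1.12 in cluster 2 and 1.56 in cluster 0. With 1 library per genotype the difference between classes was not tested. In nuclei with at most 0.5% mitochondrial UMIs the values were 0.898 in smooth muscle-like nuclei, 0.919 in B-like nuclei, 0.836 in cluster 20, 0.936 in goblet-like nuclei, 1.12 in cluster 2 and 1.16 in cluster 0.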

How the results depend on the processing

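The ratio of the summed share over all nuclei, 1.15, stayed above 1 under each alternative run. It was 1.17 with a looser filter (300 UMIs and 200 genes, mitochondrial UMIs not limited), 1.04 with a stricter one (1000 UMIs, 600 genes, 2% mitochondrial), 1.07 in nuclei with no mitochondrial UMI, 1.12 with nuclei thinned to 500 UMIs, 1.17 with median ratio scaling and 1.17 with knockout nuclei weighted to wild-type cluster shares. Chosen after seeing the data, it was 1.02 in nuclei with at most 0.5% mitochondrial UMIs, 1.08 without clusters 0 and 6 and 1.16 without cluster 23. The members' median log2 ratio, 0.21, was 0.055 with the stricter filter, 0.12 in nuclei with no mitochondrial UMI, 0.18 thinned, 0.23 with median ratio scaling, 0.038 at up to 0.5% mitochondrial UMIs and 0.11 without clusters 0 and 6. The classes higher in the knockout library, 5 of 9, were 3 of 7 with the stricter filter, 2 of 2 in nuclei with no mitochondrial UMI and 3 of 7 at up to 0.5%. In nuclei with no mitochondrial UMI 1 member was at least 1.5-fold higher (Rps27l, ratio 2.26) and 1 lower (Rpl29, ratio 0.634), where the main counts are 0. That set holds only 2131 wild-type and 1061 knockout nuclei. Both genes are among the least counted members, with 270 and 447 counts for Rps27l and 652 and 808 for Rpl29 over all nuclei. The share of all genes past the fold in that set is not given here, so these 2 calls are not read as a result. Thinning left 1 higher. Counting symbols with any UMI gave 1 lower, which is none of the 78 members, since their lowest log2 ratio was -0.10. The only counted symbol below the minimum was Rpl3l, with 2 wild-type and 1 knockout UMIs. The direction turned in goblet-like nuclei, 0.972 with the stricter filter and 0.936 (0.912 to 0.961) at up to 0.5%. The ratio in colonocyte-like nuclei was 0.992 (0.961 to 1.02) at up to 0.5%, with an interval that holds 1. The cause was not tested. Macrophage and dendritic-like nuclei went from 1.06 to 0.823 with the stricter filter, and fibroblast-like nuclei from 0.966 to 1.00 without doublet removal. Both have main intervals that hold 1. Of 140 values of class ratios, 106 moved by less than their counting interval and 31 by more, and 3 were counted apart as reversed. Of 629 values of named members, 515 moved by less and 114 by more. Subtracting 10% free RNA leaves values over all nuclei the same by construction. The named members' ratios are over all nuclei, so clustering resolution, members among the variable genes and genes added from outside the rule cannot move them either. The 515 include these fixed values, so they overstate how stable the members' ratios are. Leaving out a replicate would leave a genotype with no library. No paired analysis was possible because each genotype has 1 library.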
